A study of Mus musculus with 4 samples.

Results

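Alpl and Ibsp mark cells that have entered the bone-forming lineage, and cells that carry both but little osteocalcin are usually read as osteoprogenitors. Such cells were picked from bone marrow mesenchymal stromal cells of C57BL/6 mice by 5 expression limits and 3 quality limits. A barcode needed at least 2000 unique molecular identifiers (UMIs, counted molecules), at least 500 genes and no more than 10% of its UMIs in mitochondrial transcripts. Levels in a cell are given as u, the UMIs of a gene per 10000 UMIs of the barcode. Cells were kept with at least 50 u of Ibsp, at least 1 Alpl UMI, under 100 u of osteocalcin (Bglap and Bglap2 together), under 10 u of Adipoq, Lepr and Esm1 together, and under 15 u of Col9a1, Col9a2 and Col9a3 together. Of 21483 cells that passed the quality limits, 1125 met the rule, and they are called low-osteocalcin cells here. The same rule with at least 100 u of osteocalcin gave 125 osteocalcin-high cells.

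The series holds 4 libraries, 1 for each group, made from femora and tibiae that were crushed and treated with collagenase. Cells without CD45, TER119 and CD31 and with CD140a and CD51 were sorted, so every library is a sorted fraction. WT_A1 (genotype WT) is the partner of NHD13Tg, whose transgene is, per the series design, Nup98-HoxD13, a fusion known from human myelodysplastic syndrome (MDS). Control (genotype WT) is the partner of Abcg2-MDS/AML, where AML stands for acute myeloid leukaemia. The promoter of the transgene, the way the Abcg2 disease was brought about, and the age, sex, number and disease stage of the animals are not stated in any source used here. With 1 library per group, a difference within a pair is a difference between those libraries, with no test of the model. Intervals are at the 95% level and cover counting error only.

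Bone-forming cells pass from a progenitor that divides and makes alkaline phosphatase (Alpl) to an osteoblast that fills the matrix with type I collagen, and then to a buried osteocyte. Bone sialoprotein (Ibsp) and osteopontin (Spp1) are acidic proteins of mineralising matrix, and osteocalcin is the classic late product of the osteoblast. Runx2 and Sp7 are transcription factors without which no bone forms, while Sox9 drives cartilage. Ibsp and Alpl are also made by hypertrophic cartilage and by mineralising tendon insertions, so their presence alone does not name a cell.

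The promoters of the gene that admitted cells and of the gene that kept them out are shown because the rule turns on this pair. Both are the 250 bases before the start site from RefSeq on GRCm38.p6, written 5′ to 3′ on the strand of the gene. Ibsp lies on the plus strand (chr5:104299037-104299286) and Bglap on the minus strand (chr3:88384467-88384716). Capitals mark ACCACA, the core of RUNX sites, and TAATTG, a homeodomain core that reads CAATTA on the other strand, both searched on both strands.
Ibsp: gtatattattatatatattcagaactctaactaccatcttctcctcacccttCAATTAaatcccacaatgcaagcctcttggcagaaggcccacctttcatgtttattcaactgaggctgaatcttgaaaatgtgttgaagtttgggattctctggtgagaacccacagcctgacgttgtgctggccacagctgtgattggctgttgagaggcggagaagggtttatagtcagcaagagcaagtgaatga
Bglap: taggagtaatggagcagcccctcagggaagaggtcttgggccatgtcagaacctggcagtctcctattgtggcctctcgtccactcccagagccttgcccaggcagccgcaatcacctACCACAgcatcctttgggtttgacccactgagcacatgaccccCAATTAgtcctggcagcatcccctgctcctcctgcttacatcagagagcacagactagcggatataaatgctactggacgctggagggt
The Bglap window held 1 ACCACA, 132 bases before the start, and the Ibsp window held 0. Each held 1 TAATTG on the strand opposite to the one printed, so it reads CAATTA above, 198 bases before the start in Ibsp and 89 in Bglap. ACCACA occurred in 14% (4614) and TAATTG in 7.17% (2355) of the 32851 promoter windows of this length, and a match is a description and no evidence of binding.

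The 4 libraries held between 36133716 and 46033790 UMIs over 27998 genes. Low-osteocalcin cells had medians of 6849.5 (WT_A1), 5491 (NHD13Tg), 4952 (Control) and 4464.5 UMIs (Abcg2-MDS/AML), against 4174 to 5389 in the other cells. Osteocalcin-high cells were deeper in 3 libraries, with medians of 15935, 12884, 4894 and 10185 UMIs. No barcode was shared between low-osteocalcin cells of different libraries. The Control and Abcg2-MDS/AML libraries stood apart from the other pair: 510 and 255 of their cells had at least 50 u of the Col9 genes, against 0 and 1. Below, CPM are UMIs summed over the cells of a library per 1000000 UMIs of genes outside the rule.

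The values that chose the cells are given as a description. Median Ibsp was 128 u in WT_A1 and 115 u in NHD13Tg, and 221 u in Control and 237 u in Abcg2-MDS/AML, and the highest cells reached 1031 to 1766 u. The median cell held 6, 6, 4 and 2 Alpl UMIs. For lack of an Alpl UMI alone, 93, 122, 232 and 288 cells that met the other limits were left out. Osteocalcin was at 0 in 91 of 318 cells of WT_A1, 63 of 248 of NHD13Tg, 240 of 401 cells of Control and 125 of 158 cells of Abcg2-MDS/AML. The first pair thus held mostly cells with some osteocalcin, and the second pair mostly cells with none. At the Ibsp limit, 25, 33, 22 and 6 cells lay between 50 and 60 u, and 35, 31, 13 and 3 cells that met the other limits lay between 40 and 50 u. At the osteocalcin limit, 9, 10, 7 and 0 cells lay between 80 and 100 u, and 1, 6, 4 and 1 lay between 100 and 120 u.

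The label of an osteoprogenitor was only partly borne out by genes outside the rule. Runx2 or Sp7 was detected in 81.8% of the cells of WT_A1 (exact interval 77.1% to 85.8%), 81.9% of NHD13Tg (76.5% to 86.4%), 42.1% of Control (37.3% to 47.1%) and 33.5% of Abcg2-MDS/AML (26.2% to 41.5%). Among the other quality cells those shares were 24.1%, 33.7%, 23.3% and 16.1%. After each cell was thinned to 2000 UMIs the shares were 48.4%, 50.4%, 22.7% and 20.3%. Cartilage genes were common too: a list of 9 of them (Acan, Chad, Comp, Sox9 and others, without the Col9 genes) came to at least 20 u in 65.7%, 49.6%, 95.8% and 75.9% of the cells, and in 45.0%, 39.5%, 76.0% and 57.8% of the others. Sox9 itself was detected in 57.5%, 38.7%, 79.6% and 57.0% of low-osteocalcin cells, against 41.9%, 31.0%, 67.0% and 46.6% of the others. Chad, a cartilage matrix protein that binds chondrocytes, stood at 1328 CPM in WT_A1 and 1258 in NHD13Tg, and at 8344 CPM in Control and 7965 in Abcg2-MDS/AML, while free RNA (barcodes of 1 to 100 UMIs) held 643, 801, 3914 and 5106 CPM. The cells are therefore named by their rule and not as a cell type.

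Markers of blood and vessel cells were set beside free RNA. Ptprc, the gene of CD45, was at 0 CPM in WT_A1 and 0 in NHD13Tg, and at 0.448 CPM in Control and 0 in Abcg2-MDS/AML. The 10 endothelial markers summed to between 3.97 and 10.4 CPM, with 6 to 8 of them at 0, and the 6 lymphoid markers in the files to at most 1.59 CPM. Erythroid markers summed to 20.2, 40.5, 737 and 3.89 CPM, neutrophil markers to 14.7, 27.4, 24.2 and 145 CPM, and the 12 macrophage and osteoclast markers to 391, 395, 171 and 247 CPM, with 5 to 7 of the 12 at 0. Most of that last sum was the protease Ctsk, at 339 CPM in WT_A1 and 330.2 in NHD13Tg, and at 155 CPM in Control and 197 in Abcg2-MDS/AML, while Csf1r, a defining receptor of macrophages, was at most at 0.570 CPM. These 3 lists and the endothelial one were below free RNA in every library. The sort genes were present: Pdgfra, the gene of CD140a, was at 179 CPM in WT_A1 and 163 in NHD13Tg, and at 78.9 CPM in Control and 335 in Abcg2-MDS/AML, and Itgav, the gene of CD51, at 68.3 CPM in WT_A1 and 89.5 in NHD13Tg, and at 52.0 CPM in Control and 68.6 in Abcg2-MDS/AML.

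The cells fell into 5 clusters, which held 496, 204, 180, 160 and 85 cells, after the libraries had been integrated. The clusters were found on all genes of the same cells, so their genes describe the mixture and are no test. Cluster 0 was led by Plat, Thbs4 and Tnfrsf11b, cluster 1 by Cytl1, Scrg1 and Prg4, cluster 2 by Aspn, Col14a1 and Apod, cluster 3 by Limch1, Hp, Tnc and Cxcl12, and cluster 4 by Car3, Phex, Col22a1 and Car2. Clusters are called by number. Cluster 4 was deeper, with a median of 13665 UMIs against 5409 over all low-osteocalcin cells.

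**Figure D1:**
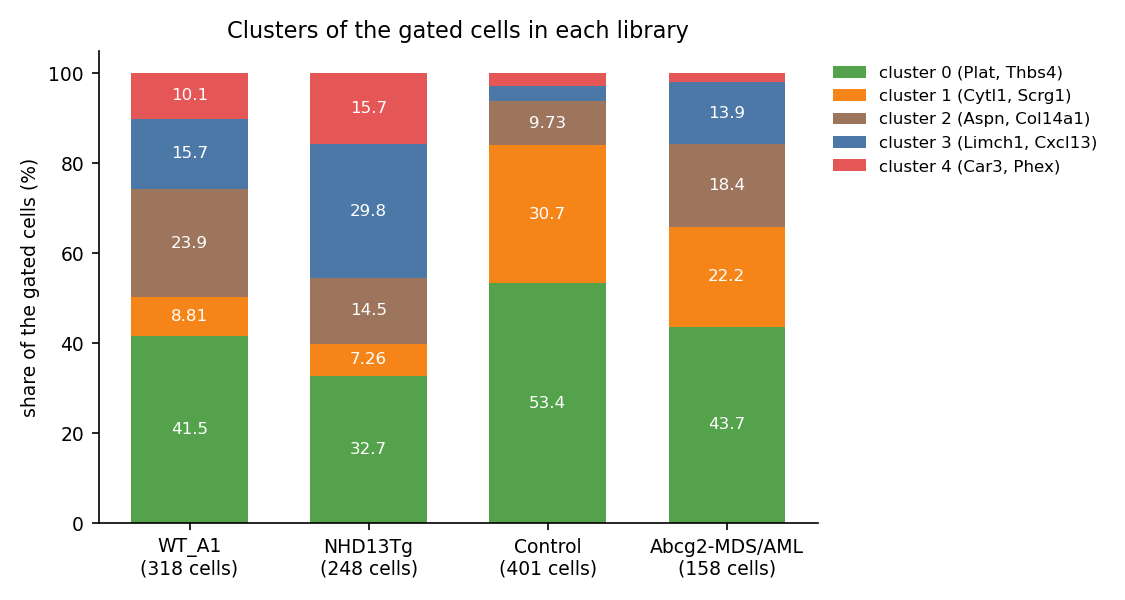
Share of the low-osteocalcin cells of each library (vertical axis, %) that fell into each of the 5 clusters. Clusters 0 and 1 together held most cells of Control, while clusters 3 and 4 held 29.8% and 15.7% of NHD13Tg.

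The makeup differed from library to library. Cluster 0 was the largest in each, with 41.5% of WT_A1, 32.7% of NHD13Tg, 53.4% of Control and 43.7% of Abcg2-MDS/AML cells. Cluster 1 held 8.81%, 7.26%, 30.7% and 22.2%, and cluster 2 held 23.9%, 14.5%, 9.73% and 18.4%. Cluster 3 held 15.7%, 29.8%, 3.49% and 13.9%, and cluster 4 held 10.1%, 15.7%, 2.74% and 1.90%. Since the genes that define clusters also differ between libraries, these shares were not compared between the groups. Without integration 6 clusters formed, and 2 of them, with 286 cells, came to over 75% from 1 library, whereas the highest share of a library in an integrated cluster was 60.3%.

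Ibsp, which chose the cells, is given here as a description only. In cluster 0 it was at 25101 CPM in WT_A1 and 22495 in NHD13Tg, and at 41986 CPM in Control and 47337 in Abcg2-MDS/AML. In the same order of libraries, which holds below, it was at 33321, 25905, 29083 and 22289 in cluster 1, 13257, 12035, 17064 and 25639 in cluster 2, 13637, 10787, 18224 and 17934 in cluster 3 and 11868, 10821, 16383 and 20281 CPM in cluster 4. Col1a1, the main collagen of bone, was at 17105, 12773, 13733 and 6999 CPM in cluster 0, 1404, 3199, 199 and 76.0 in cluster 1 and 62290.0, 69175, 29529 and 43802 in cluster 4, the highest cluster of each library. Ifitm5, a membrane protein of mineralising osteoblasts, was at 0 CPM in cluster 1 of all 4 libraries and at 1417, 1332, 345 and 399 CPM in cluster 4. Sp7 was at 42.0, 8.96, 7.84 and 0 CPM in cluster 1 and 195, 163, 30.3 and 44.4 in cluster 4, and in Control it was higher in cluster 3, at 168 CPM. The Abcg2-MDS/AML values of cluster 4 rest on 3 cells and those of Control on 11.

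Within each library, clusters 0 and 1 held more of the cartilage genes Chad and Comp than clusters 3 and 4. Chad was at 1690.1, 2088, 9775 and 8603 CPM in cluster 0, 5738, 9435, 9631 and 17330.2 in cluster 1, 11.5, 14.9, 707 and 1363 in cluster 3 and 16.8, 14.8, 1267 and 621 in cluster 4. Levels also differed between libraries inside a cluster, with Chad of cluster 0 higher in Control and Abcg2-MDS/AML. Comp, a matrix protein of cartilage and tendon, was at 7740.4, 11117, 11996 and 9178 CPM in cluster 0, 19942, 12670.0, 11593 and 6115 in cluster 1 and 270.4, 81.4, 2067 and 0 in cluster 4. Cluster 1 was set apart by Cytl1, a cytokine-like product of chondrocytes, at 13486, 10564, 38915 and 58328 CPM, and by Prg4, the lubricin of the joint surface, at 20348, 9982, 32901 and 40499 CPM. Both were highest in cluster 1 of each library. Tnfrsf11b, the decoy receptor that blocks osteoclast formation, was at 1337, 1781, 869.9 and 1413 CPM in cluster 0, 2332, 1379.9, 525 and 239 in cluster 1 and 38.2, 44.7, 16.8 and 187 in cluster 3. Thbs4, a tendon thrombospondin, was at 2034, 2723, 1109 and 1249 CPM in cluster 0 and 15.3, 39.8, 118 and 24.3 in cluster 3.

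Clusters 2 and 3 carried fibrous and marrow genes. Tnn, a tenascin of periosteum and tendon, was highest in cluster 2 of each library, at 634, 757, 86.6 and 312 CPM. Aspn and Col3a1, matrix genes of fibrous tissue, were too, at 2553, 4179.9, 876 and 1133 and at 10509, 9443, 4441 and 5090.0 CPM. Spp1 was highest in cluster 3 of each library, at 33717, 41279, 55683 and 83813 CPM, against 13640.1, 11115, 20409.7 and 35320.4 in cluster 0. Mmp13, the collagenase that opens bone and cartilage matrix, stood at 4482, 7551, 8044 and 6392 CPM in cluster 3, and in Abcg2-MDS/AML it was higher in cluster 2, at 11356 CPM. Genes of marrow support were highest in cluster 3 of each library: Cxcl12, which holds blood stem cells in place, at 1793, 2682, 3012 and 811 CPM, Kitl, the stem cell factor, at 394, 467, 286 and 227 CPM, and Tnfsf11, the osteoclast signal RANKL, at 111, 236, 202 and 154 CPM. Mki67, a gene of dividing cells, was at 224, 16.7, 642 and 0 CPM in cluster 4 and at most 16.8 CPM elsewhere. Erythroid markers went with it: they summed to 1265 CPM in cluster 4 over the libraries together, against 21.5 to 76.8 CPM in the other clusters. Hbb-bs, a globin, was at 10.5, 18.5, 2643 and 0 CPM and Car2 at 18.9, 11.1, 2024 and 0 CPM in cluster 4, so both came mainly from the 11 cells of Control, and 1 cell gave 65.6% of the Hbb-bs UMIs. Their part in the Mki67 level was not tested.

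**Figure D2:**
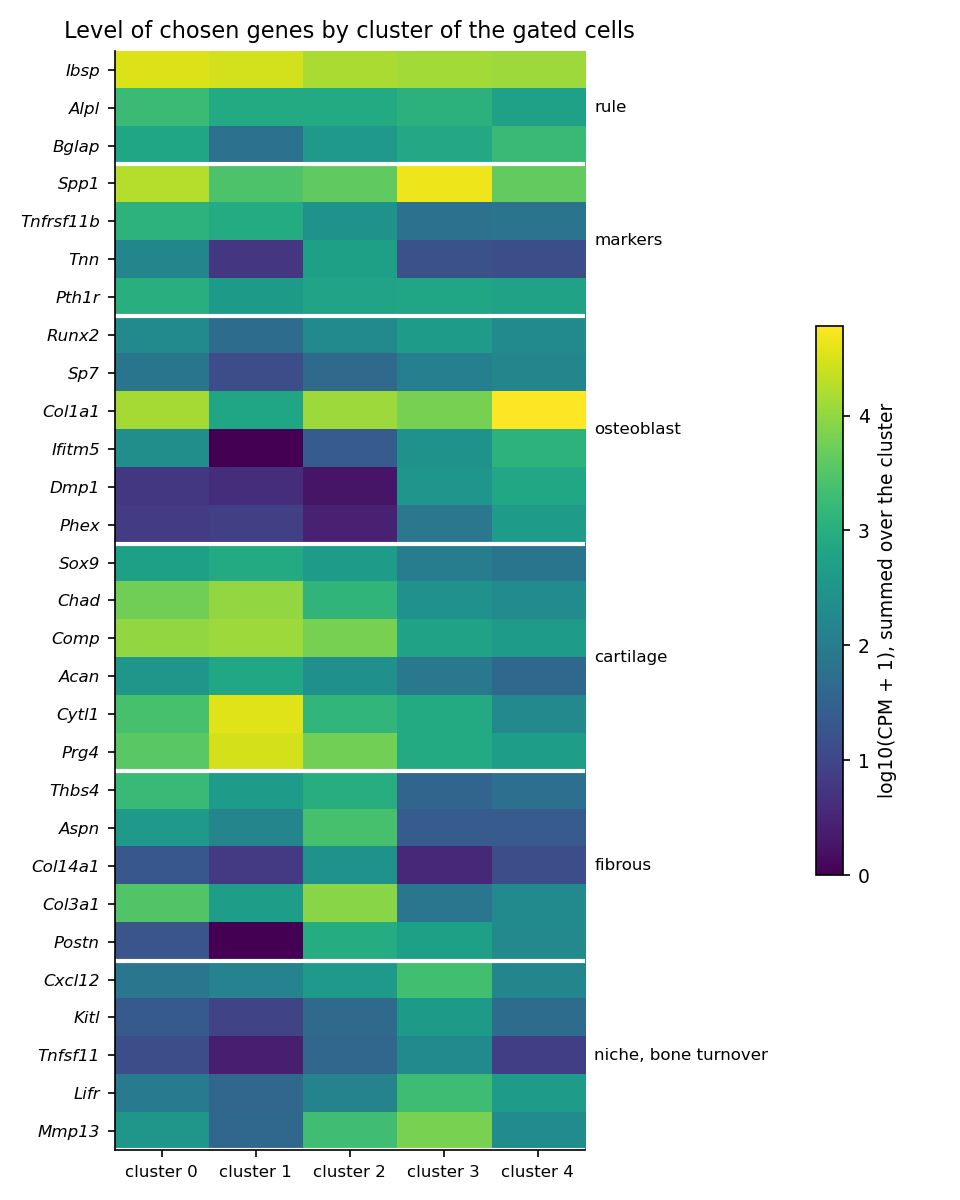
Level of chosen genes (rows, grouped by role) in each cluster of the low-osteocalcin cells (columns), as log10 of the summed CPM plus 1, over the 4 libraries together. Col1a1, Sp7 and Ifitm5 peak in cluster 4, Chad, Comp and Sox9 in cluster 1, and Cxcl12, Kitl, Tnfsf11 and Lifr in cluster 3.

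Low-osteocalcin cells differed from osteocalcin-high cells in a broad set of genes outside the rule. They had less collagen I and fewer transcripts of late osteoblast genes, and more transcripts of secreted signals, growth factor binding proteins, marrow niche factors and cartilage matrix. Both classes were summed in each library (38, 49, 35 and 3 osteocalcin-high cells) and compared in edgeR's quasi-likelihood test with the library as a block. Of 7307 genes tested, 822 were higher (11.2%) and 479 lower (6.56%) at an adjusted p (Benjamini-Hochberg) under 0.05. The classes were split on a gene of these same cells, so the test says which other genes went with that split and lends it no support. In Abcg2-MDS/AML the 3 osteocalcin-high cells gave 24981 UMIs, where a single UMI is worth 42.1 CPM. Without WT_A1, 383 genes were higher and 167 lower, without NHD13Tg 477 and 250, and with each cell thinned to 2000 UMIs 114 and 63.

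Genes of the finished osteoblast were lower. Col1a1 stood at 21869 against 95699 CPM in WT_A1, 29218 against 93243 in NHD13Tg, 9461 against 73127 in Control and 6352 against 49897 in Abcg2-MDS/AML (low-osteocalcin cells first, here and below). The classes did not overlap across the 4 libraries, and the log2 difference was -2.38 (SE 0.61, edgeR adjusted p = 0.00130). Here and below, non-overlap only describes the gene named. The share of all genes tested that did not overlap is not given, so it is no measure of strength. Of 30 bone matrix genes tested, 9 were higher and 13 lower, with a median log2 difference of -0.62 against 0.07 for all genes tested. Of all genes tested, 11.2% were higher and 6.56% lower. The most abundant of the lower ones were Col1a1, Col1a2 (-2.25), Col11a1 (-2.02) and Col5a2 (-1.59), which build or nucleate collagen fibrils. The most abundant of the higher ones were Mgp (2.28), an inhibitor of mineralisation, Omd (1.17), a keratan sulphate proteoglycan of bone, and Tnc (1.57), a tenascin of fibrous tissue. Free RNA reached the Mgp level of low-osteocalcin cells in all 4 libraries. Of 8 markers of the mature osteoblast and osteocyte outside the rule, 6 were lower and 0 higher (median -2.32), among them Car3 (-2.84), Ifitm5 (-2.54), Dmp1, an acidic protein of osteocytes (-2.92), and Phex (-2.10). Ifitm5 stood at 452 against 1209 CPM in WT_A1, 603 against 1333 in NHD13Tg, 48.0 against 975 in Control and 54.4 against 800.0 in Abcg2-MDS/AML. The classes did not overlap across the 4 libraries.

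Of 9 genes of mineralisation tested, 3 were higher and 4 lower, where 11.2% and 6.56% of all genes tested were. Slc13a5, a citrate carrier of osteoblasts, stood at 38.1 against 298 CPM in WT_A1, 86.7 against 195 in NHD13Tg, 5.38 against 192 in Control and 11.7 against 0 in Abcg2-MDS/AML, so it was lower in 3 libraries, and the 3 osteocalcin-high cells of Abcg2-MDS/AML held none. Phex, which curbs the phosphate hormone, was lower too (log2 -2.10, edgeR adjusted p = 8.0e-13), as was Smpd3, a lipid enzyme needed for mineral growth (-1.47). The higher members were Enpp1 (2.34) and Ank (1.04), which make and export pyrophosphate, a brake on mineral, and Slc20a1 (2.71), a phosphate carrier. Of 20 genes for folding and crosslinking collagen, 6 were lower, led in abundance by the crosslinking enzyme Lox (-1.27), the prolyl isomerase Fkbp10 (-0.92), Creb3l1 (-0.98), a factor that drives secretory genes in osteoblasts, and the hydroxylase P3h1 (-1.27). The 1 higher member was Loxl1 (1.95).

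Among 16 osteoblast transcription factors, 3 were lower and 2 higher, where 6.56% and 11.2% of all genes tested were. Sp7 stood at 112 against 179 CPM in WT_A1, 106 against 133 in NHD13Tg, 29.6 against 158 in Control and 14.2 against 42.1 in Abcg2-MDS/AML, a log2 difference of -1.17 (SE 0.24, edgeR adjusted p = 2.2e-05). It was lower in low-osteocalcin cells of each library, where the value of the 3 osteocalcin-high cells of Abcg2-MDS/AML is a single UMI. Sox4 differed by -0.85, while Runx2 did not pass the test (-0.35, adjusted p = 0.411). Msx1 (3.02), a homeobox factor of skeletal progenitors, and Zfp521 (1.61), a zinc finger protein that binds Runx2, were higher.

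Genes that tell osteoclasts to form or not to form were higher together: 6 of 6 tested, with a median of 2.59. The share of all genes tested that were higher was 11.2%. Tnfrsf11b, the decoy receptor, stood at 785 against 35.7 CPM in WT_A1, 640.4 against 52.4 in NHD13Tg, 636 against 145 in Control and 654 against 884 in Abcg2-MDS/AML. It was higher in 3 libraries and lower in Abcg2-MDS/AML, and the log2 difference was 2.57 (SE 0.36, edgeR adjusted p = 1.7e-10). Cxcl12 (2.06), Csf1 (1.53), a growth factor of osteoclast precursors, and Ccl2 (2.60), which draws monocytes, were higher, and so was Tnfsf11 (2.80), the ligand of the decoy receptor. Free RNA reached the level of these 4 genes in low-osteocalcin cells in 4, 3, 4 and 3 of the 4 libraries, against 0 for Tnfrsf11b. With only cells under 20 u of the cartilage list, the Tnfrsf11b difference was 0.09 and no longer passed.

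In the IGF system 8 of 9 genes tested were higher and 0 lower, with a median of 2.04. Over all genes tested the shares were 11.2% and 6.56%. Igfbp6, a binding protein that favours IGF2, stood at 1309.9 against 107 CPM in WT_A1, 1165 against 84.2 in NHD13Tg, 961 against 404 in Control and 1276 against 168 in Abcg2-MDS/AML. All 4 low-osteocalcin values lay above all 4 osteocalcin-high values. Igfbp7 (3.39), Igfbp5 (2.04) and Igfbp4 (1.67), further binding proteins, were higher as well. Free RNA reached the level of low-osteocalcin cells in 2, 2, 3 and 4 libraries for these 4 genes in that order.

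Of 15 marrow niche factors, 11 were higher and 0 lower, among them Cxcl12, Csf1, Gas6 (2.06), a growth factor for TAM receptors, and Vcam1 (2.98), an adhesion molecule for blood cells. For these lists too, the shares over all genes tested were 11.2% higher and 6.56% lower. Free RNA reached the level of Gas6 in 4 and of Vcam1 in 3 libraries. Of 22 NF-kB and cytokine genes, 13 were higher and 0 lower, led in abundance by the feedback inhibitors Nfkbia (1.19), Socs3 (1.05) and Nfkbiz (1.43) and by the chemokine Cxcl1 (3.49). Genes that respond to tissue dissociation had the same direction, with 13 of 26 higher and 0 lower, and Jun, Klf4 and Klf2 differed by 1.28, 1.55 and 1.01. The part that dissociation may have in the other lists was not tested.

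Wnt genes were higher in 8 of 19 and lower in 2. For this and the following lists, 11.2% of all genes tested were higher and 6.56% lower. The higher ones included the secreted inhibitors Wif1 (2.32) and Frzb (1.29) and the receptor Fzd8 (1.44), and the lower ones were Lrp5, a Wnt co-receptor that sets bone mass (-1.17), and the inhibitor Dkk1 (-0.77). In the BMP and TGF-beta list 12 of 26 were higher, with Ctgf (1.95), Id1 (1.5) and Id2 (1.17) most abundant, and 2 were lower, the pseudoreceptor Bambi (-1.15) and Bmp3 (-2.16). Responses to parathyroid hormone and cAMP were higher in 7 of 15 and lower in 0, with Nr4a1 (1.59), Nr4a2 (1.18) and the phosphodiesterase Pde4b (3.00) among them, while the hormone receptor Pth1r itself did not pass. Hedgehog and FGF genes were higher in 6 of 16, with Ptch1 (1.87) and Fgfr3 (1.03), and lower in 0. Of 15 proteases and inhibitors, 4 were higher, with Mmp13 (2.95) and Timp3 (2.04) most abundant, and 3 lower. Of 26 hypoxia and glycolysis genes, 9 were higher and 0 lower, and Gapdh and Ldha differed by 0.91 and 1.06. The unfolded protein response (0 of 19 called) and the ribosomal proteins (0 of 24 called) did not pass the test in either direction.

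Markers of other tissues went with the low-osteocalcin class, and with only cells under 20 u of the cartilage list in both classes 280 genes were higher and 166 lower. Of 7 chondrocyte markers tested, 6 were higher (median 2.71), of 7 fibroblast markers 6, of 7 tenocyte markers 5 and of 10 reticular stromal markers 9. These counts are from all cells of both classes, where 11.2% of all genes tested were higher. Comp stood at 6306 against 505 CPM in WT_A1, 4792 against 299 in NHD13Tg, 10475 against 4573 in Control and 5834 against 716 in Abcg2-MDS/AML. The classes did not overlap across the 4 libraries. The chondrocyte list summed to 8755, 6740.4, 23679 and 15729.7 CPM in low-osteocalcin cells and to 2205, 910.3, 9460.2 and 884 CPM in osteocalcin-high cells.

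Taking genes by the lowest adjusted p among those at least 2-fold apart and in the same direction in all 4 libraries, the matrix protein Ecm2 (3.51), the small proteoglycan Fmod (3.57), Crispld1 (3.74), Cilp2 of cartilage and tendon (3.72), Olfml2b (3.05), Cox4i2 (3.22), the imprinted RNA Meg3 (3.03), Itm2a (2.83), the growth factor Gdf10 (2.86) and the neuropeptide Npy (4.85) led the higher side, with Cytl1 (7.05). Fmod stood at 964 against 49.99 CPM in WT_A1, 693 against 38.1 in NHD13Tg, 947 against 115 in Control and 227 against 84.2 in Abcg2-MDS/AML. Chil1, a chitinase-like protein of joint tissue, was at 57.1 CPM in WT_A1 and 21.1 in NHD13Tg, and at 296 CPM in Control and 3696 in Abcg2-MDS/AML, and at 0 in all 4 osteocalcin-high sums. For Ecm2, Fmod, Cilp2, Olfml2b, Cytl1 and Chil1, free RNA reached the level of low-osteocalcin cells in 1 library each. On the lower side stood the lipase Lipc (-3.40), Entpd3 (-3.31), the protease-like Prss35 (-3.16), Mlip (-2.42), the membrane collagen Col13a1 (-2.46), the amino acid carrier Slc36a2 (-2.41), Pcdh7 (-2.19), C1qtnf6 (-2.11), Ralgps2 (-3.62), the membrane protease Mmp16 (-2.15), Dmp1 and Bmp3. Lipc stood at 25.4 against 173 CPM in WT_A1, 25.7 against 111 in NHD13Tg, 4.93 against 264 in Control and 5.18 against 42.1 in Abcg2-MDS/AML. The classes did not overlap across the 4 libraries, and in Abcg2-MDS/AML the osteocalcin-high value is a single UMI.

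**Figure D3:**
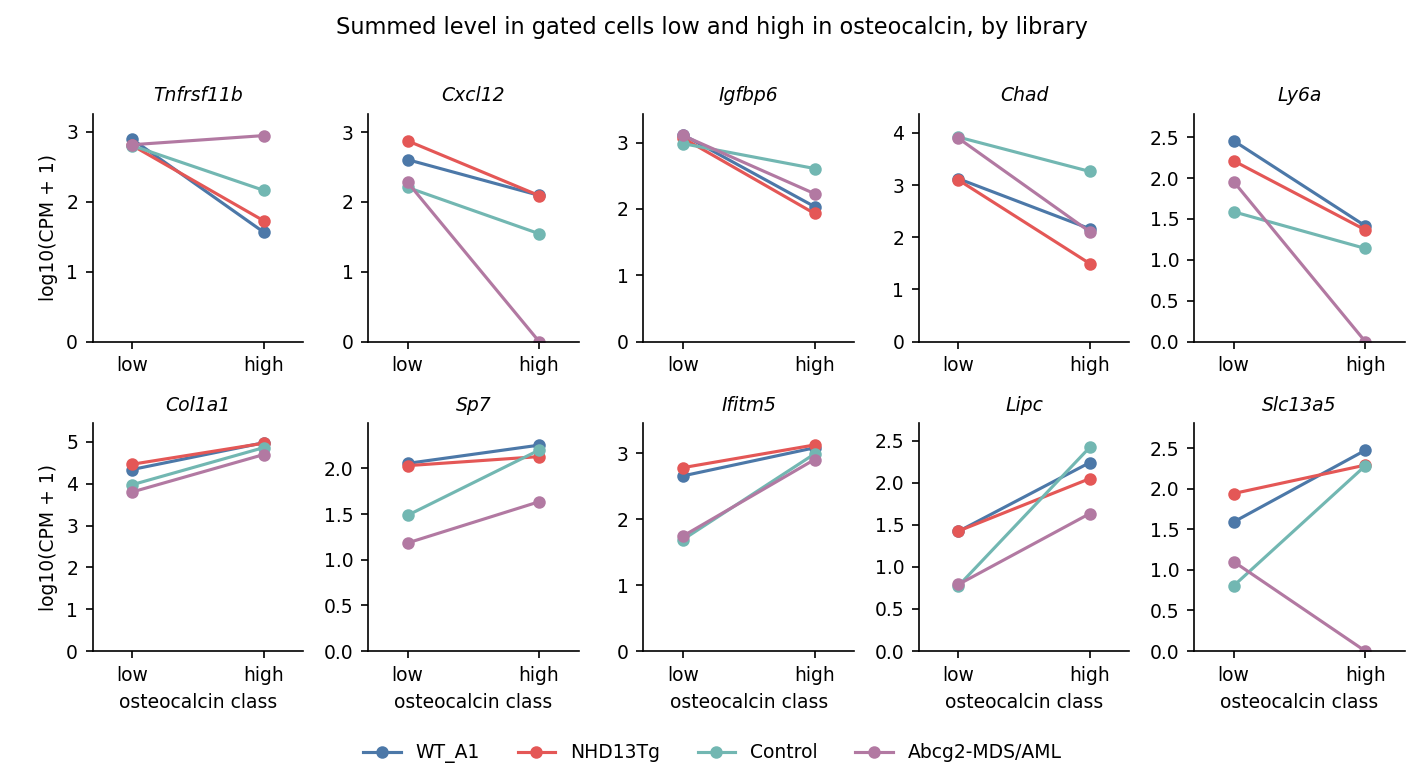
Summed level of 10 genes (vertical axis, log10 of CPM plus 1) in the low-osteocalcin and osteocalcin-high cells of each library, with a line joining the classes of a library. Col1a1, Sp7 and Ifitm5 are higher in osteocalcin-high cells of all 4 libraries, and Tnfrsf11b is lower in 3. The Abcg2-MDS/AML points on the right rest on 3 cells.

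Within the class, levels changed in steps with osteocalcin, which is a description since the bands are cut on a gene of the same cells. In WT_A1 the bands at 0, under 10, under 100 and at least 100 u held 91, 128, 99 and 38 cells, and Col1a1 was at 13804, 20561, 31029 and 95699 CPM from the lowest band to the highest. In NHD13Tg it was at 10932, 24456, 43909 and 93243 CPM, and in Control at 3107, 13885, 24386 and 73127 CPM. Ifitm5 increased through the bands of WT_A1, at 52.9, 408, 875 and 1209 CPM, and of Control, at 3.06, 83.1, 149 and 975 CPM. The cartilage gene Chad ran the other way in WT_A1, at 2369, 1124, 683 and 145 CPM, and in NHD13Tg, at 3301, 1078, 319 and 30.2 CPM. In Control it held at 8561, 9054 and 6730.1 CPM within the class and was at 1826 CPM in the highest band. Tnfrsf11b declined over the bands of WT_A1, at 1332, 656, 476 and 35.7 CPM, whereas in Control it was at 544, 678, 879 and 145 CPM, highest in the band next to the limit. In Abcg2-MDS/AML the highest band held 3 cells, and within the class Tnfrsf11b was at 530.3, 1096 and 1281 CPM over 125, 22 and 11 cells.

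**Figure D4:**
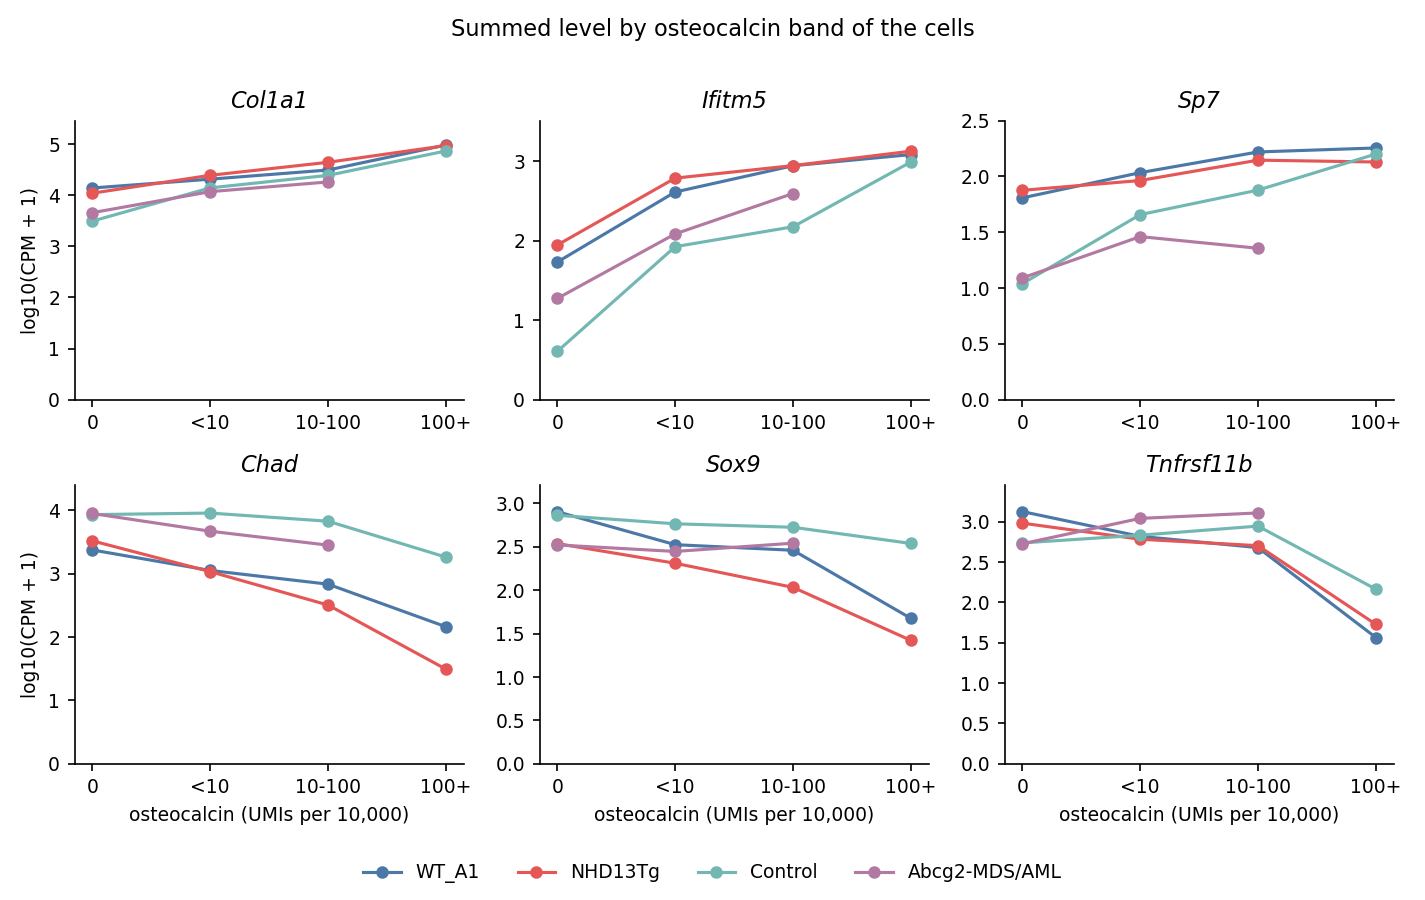
Summed level of 6 genes (vertical axis, log10 of CPM plus 1) by osteocalcin band of the cells (horizontal axis, UMIs per 10000), 1 line for each library, with bands of under 10 cells left out. Collagen I and Ifitm5 increase from band to band in the libraries shown, and Chad is lowest in the highest band.

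Of the 4 proposed markers outside the rule, Tnfrsf11b and Tnn passed the test against each class compared, and Spp1 and Pth1r, the receptor of parathyroid hormone, each missed it against osteocalcin-high cells. The 4 were proposed with results of these data in view, so a pass lends them no independent support. Tnn was at 272 CPM in WT_A1 and 165 in NHD13Tg, and at 22.9 CPM in Control and 80.3 in Abcg2-MDS/AML, high in the first pair and low in the second. Against osteocalcin-high cells it differed by 2.03 (SE 0.30, edgeR adjusted p = 1.7e-09), though only WT_A1 and NHD13Tg showed a gap: osteocalcin-high cells held 46.4, 25.4, 21.3 and 84.2 CPM in the same order of libraries. With each cell thinned to 2000 UMIs the Tnn difference was 0.70 and no longer passed. Spp1 was at 10038 CPM in WT_A1 and 14280.2 in NHD13Tg, and at 12696 CPM in Control and 31480.1 in Abcg2-MDS/AML. It differed from osteocalcin-high cells by 1.02 (adjusted p = 0.185 in edgeR), short of the threshold, and by 1.34 without Abcg2-MDS/AML, past it. Pth1r was at 909.5 CPM in WT_A1 and 886 in NHD13Tg, and at 568 CPM in Control and 319.9 in Abcg2-MDS/AML. Its difference from osteocalcin-high cells was 0.11 (adjusted p = 0.905 in edgeR). Against reticular cells (at least 50 u of Adipoq, Lepr and Esm1; 32.7% of 9826 genes called) all 4 markers were higher: Tnn by 8.89, Tnfrsf11b by 7.40, Spp1 by 3.94 and Pth1r by 3.37. Runx2 was at a like level in both (-0.01, SE 0.36).

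Chondrocyte-like cells with at least 50 u of the Col9 genes could be compared in Control and Abcg2-MDS/AML alone, and 19.5% of 10090 genes were called. Low-osteocalcin cells had more Mmp13 (6.46), Col1a1 (6.37), Spp1 (4.08), Pdgfra (3.81), Tnn (2.92) and Tnfrsf11b (1.77) and less Sox9 (-2.32). Chad did not pass the test (-0.09, SE 0.59), nor did Pth1r (-0.81, edgeR adjusted p = 0.0763). Against all other quality cells, where 5.94% of 14068 genes were called, the markers were higher by 2.88 (Spp1), 2.37 (Tnfrsf11b), 2.27 (Tnn) and 2.25 (Pth1r), and so were Runx2 (1.52), Sp7 (2.00), Chad (1.51) and Comp (1.38).

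By this rule, low-osteocalcin cells were a smaller share of the quality cells in both model libraries. The Alpl limit alone kept out 93 cells of WT_A1, 122 of NHD13Tg, 232 of Control and 288 of Abcg2-MDS/AML. No alternative setting varied that limit, so its part in the differences was not tested. They made up 318 of 4973 quality cells in WT_A1 (6.39%, 5.73% to 7.11%) and 248 of 5766 in NHD13Tg (4.30%, 3.79% to 4.86%), a difference of -2.09 percentage points (-2.97 to -1.23). In the second pair they were 401 of 5158 quality cells in Control (7.77%) against 158 of 5586 in Abcg2-MDS/AML (2.83%, 2.41% to 3.30%), a difference of -4.95 points (-5.82 to -4.09). Both differences lay in cells rich in cartilage genes. With only low-osteocalcin cells under 20 u of the cartilage list, 109, 125, 17 and 38 cells remained, and the differences were -0.0240 points (-0.597 to 0.541) in the NHD13 pair and 0.351 points (0.0707 to 0.638) in the Abcg2 pair, now higher in the model library. Within the cells that passed the other limits, the low-osteocalcin share was 89.3% in WT_A1 and 83.5% in NHD13Tg, and 92.0% in Control and 98.1% in Abcg2-MDS/AML, so it was lower in the first model library and higher in the second.

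In the NHD13 pair few genes stood far apart. Of 5793 genes with at least 20 CPM in either library, 95 were at least 2-fold higher in NHD13Tg with an interval that left out 1 (1.64%), and 87 were lower (1.5%). This size rule is not a test, and 41 of the 95 and 27 of the 87 were at or below their level in free RNA. The 4 markers outside the rule and Runx2 were close: Spp1 was at 14280.2 CPM in NHD13Tg and 10038 in WT_A1, Tnn at 165 and 272 CPM, Tnfrsf11b at 640.4 and 785 CPM, Pth1r at 886 and 909.5 CPM and Runx2 at 257 and 237 CPM, and none of these passed the rule. The median log2 ratio of all genes was -0.03.

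The larger ratios of the NHD13 pair lay in low genes. Pdk4, a kinase that turns cells from glucose to fat as fuel, was at 65.6 CPM in NHD13Tg and 15.1 in WT_A1 (log2 2.11, 1.58 to 2.69), and it was higher in the other quality cells too (1.06). Cldn10, a tight junction protein, was at 157 and 51.2 CPM, with 1.60 in the other cells. Ctsc, a lysosomal protease, was at 37.1 and 10.3 CPM (1.83) but level in the other cells (0.02). Over the libraries together, Ctsc (167 against 7.62 CPM in the other clusters) and Cldn10 (398 against 27.1 CPM) were higher in cluster 3. That cluster held 29.8% of NHD13Tg and 15.7% of WT_A1 cells, and its part in these ratios was not tested. Car12 (2.48), Rnaset2b (2.22), Porcn (1.78), Fxyd3 (1.71), Cdh15 (1.58), Tfpi2 (1.51) and Arhgap18 (1.5) completed the top of the list. In Car12, Fxyd3 and Tfpi2 a single cell gave 31.8%, 35.5% and 38.5% of the UMIs. Rnaset2b has a near-identical copy, so its count is uncertain.

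On the lower side of the NHD13 pair stood Frzb, a secreted Wnt inhibitor of joint cartilage, at 14.3 CPM in NHD13Tg and 80.6 in WT_A1 (log2 -2.47, -3.16 to -1.90), against -0.09 in the other cells. A single cell gave 27.1% of the Frzb UMIs in WT_A1. Genes of dividing cells followed: Mki67 at 5.70 and 43.7 CPM, Hmmr (-2.46), Cenpa (-1.73) and Hist1h2ap (-2.56), and of 11 measured members of the proliferation list 5 were lower and 0 higher. These UMIs came from few cells, since Mki67 or Top2a was detected in 15 cells of WT_A1 and 7 of NHD13Tg and 1 cell gave 32.7% of the Mki67 UMIs in WT_A1. Of 7 chondrocyte markers measured, 2 were lower and 1 higher, Col10a1 of hypertrophic cartilage (2.62). Col10a1 did not meet the limits on free RNA or single cells that were set for the ranking of ratios. Over the libraries together, a single cell gave 56.9% of the Col10a1 UMIs of cluster 1. The lower ones were Sox9 at 196 and 446 CPM (-1.19) and Acan at 105 and 266 CPM (-1.34), while Chad was at 1258 and 1328 CPM. Within cluster 0, Sox9 and Acan differed by -0.75 and -1.30. Pgk1 (-2.17), an enzyme of glycolysis, was low in the other quality cells too (-1.96). Rexo4 (-1.93), Alg2 (-1.88) and Clec3a (-1.70) completed the list.

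By list, few genes of the NHD13 pair were past the rule: 0 of 14 osteoblast transcription factors, 2 higher (Dmp1 1.12, Col11a2 1.27) and 2 lower (Mgp -1.37, Mepe -3.16) of 30 bone matrix genes, and 0 of 18 collagen folding genes. Mepe did not meet the limits on free RNA or single cells that were set for the ranking of ratios. Of 6 osteoclast-regulating genes 3 were higher (median 0.97), Tnfsf11 at 62.7 and 30.6 CPM, Ccl2 (1.52) and Il6 (1.14), yet 5 of the 6 were at or below free RNA and the median was -0.60 within cluster 0 and 0.61 within cluster 3. The unfolded protein response had a median of -0.41 with 1 of 19 past the rule, Sdf2l1 (-1.44), a chaperone of the secretory pathway. That median was -0.47, -0.47, -0.54, -0.19 and -0.39 in clusters 0 to 4 and -0.27 in the other quality cells. In cluster 3 (6408 genes; 3.03% higher and 3.84% lower), genes of dissociation (5 of 26 higher, 0 lower, median 0.62) and of NF-kB (5 of 22 higher, 1 lower, 0.66) had positive medians. In cluster 4 (5697 genes; 2.3% higher and 4.32% lower) 4 of 26 dissociation genes were higher and 0 lower (median 0.12), and 0 of 15 NF-kB genes were higher and 5 lower (-0.24). In cluster 0 (5713 genes; 2.96% higher and 2.71% lower) their medians were -0.19 and 0.05, with 0 dissociation genes past the rule, and the difference between clusters was not tested.

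The Abcg2 pair stood further apart. Of 5539 genes, 439 were past the size rule on the higher side (7.93%) and 470 on the lower (8.49%), with 105 and 204 of them at or below free RNA. Osteopontin was at 31480.1 CPM in Abcg2-MDS/AML and 12696 in Control (log2 1.31), and at 0.79 within cluster 0 and -0.95 within cluster 1. Tnn was at 80.3 and 22.9 CPM (1.81), and -0.20 within cluster 0. Spp1 was also higher in Abcg2-MDS/AML in clusters 2 (17114 and 6309 CPM) and 3 (83813 and 55683 CPM). Tnn was higher there in cluster 2 (312 and 86.6 CPM). In clusters 1 and 3 it was at 5.43 and 1.31 CPM and at 81.1 and 0 CPM. Over the libraries together these 2 clusters held only 6 and 12 Tnn UMIs. Among clusters 0 to 3, Spp1 thus turned in cluster 1 alone. Tnn was close in cluster 0, at 26.3 and 31.6 CPM, and the few UMIs of clusters 1 and 3 do not settle its direction there. Tnfrsf11b was at 654 and 636 CPM and Pth1r at 319.9 and 568 CPM, neither past the rule.

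Matrix-degrading enzymes and their inhibitors were mostly higher in the low-osteocalcin cells of Abcg2-MDS/AML. Of 15 measured, 11 were higher and 1 lower, with a median of 1.42 against -0.08 for all genes and 1.07 for the list in the other quality cells. Mmp13 was at 3592 CPM in Abcg2-MDS/AML and 361 in Control (log2 3.32, 3.2 to 3.43). Adamts5, the aggrecanase of cartilage, was at 589 and 219.7 CPM, and the inhibitors Timp1 and Timp3 were at 1017 and 246 CPM and at 2619.9 and 1292 CPM. The lower gene was Pcolce (-1.59), which helps to trim procollagen. Within clusters the list was less one-sided, with medians of -0.03, -0.08, 1.06 and 0.10 in clusters 0 to 3. In cluster 0 (5442 genes; 5.68% higher, 9.15% lower) 3 of 12 were higher and 1 lower, and Mmp13 itself differed by 3.23, against -0.33 in cluster 3.

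Of 24 inflammatory genes measured, 11 were higher and 0 lower (median 0.84, and 0.57 in the other quality cells), though 10 of the 24 were at or below free RNA. Vcam1 was at 218 CPM in Abcg2-MDS/AML and 21.5 in Control (log2 3.33, 2.87 to 3.83), where the other cells differed by 0.16. Over the libraries together, Vcam1 was higher in cluster 3 (537 against 49.9 CPM in the other clusters). That cluster held 13.9% of Abcg2-MDS/AML and 3.49% of Control cells, and its part in the ratio was not tested. Sod2, a mitochondrial antioxidant, was at 172 and 84.8 CPM. Complement C3 was at 199 and 4.48 CPM and Cxcl1 at 214 and 78.9 CPM, but free RNA of Abcg2-MDS/AML held 366 and 751 CPM of them. The median of the list was 0.13, 0.76, 0.69 and 0.53 in clusters 0 to 3. In cluster 1 (5186 genes; 6.25% higher, 8.29% lower) 6 of 19 were higher and 1 lower.

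Genes of the secretory machinery had negative medians in Abcg2-MDS/AML, also within clusters. The unfolded protein response had a median of -0.70 with 3 of 18 past the rule and 0 higher: Creld2 at 16.8 and 62.8 CPM (-1.85), Sdf2l1 at 20.7 and 61.4 CPM (-1.53) and Pdia4 at 49.2 and 111 CPM (-1.16), all of them chaperones or folding enzymes. Its median was -1.0 in cluster 0 (0 of 18 higher, 9 lower), -0.79 in cluster 1, -0.68 in cluster 2 and -0.61 in cluster 3. The other quality cells gave -0.59, so the difference was not limited to low-osteocalcin cells. Genes for collagen folding had a median of -0.55, with 4 of 19 lower and 1 higher, and -0.88 in cluster 0, where 7 were lower and 0 higher; clusters 1 to 3 gave -0.73, -0.96 and -0.51. Serpinh1, the collagen chaperone, was at 325 CPM in Abcg2-MDS/AML and 957 in Control (-1.56, -1.75 to -1.37), P4ha2, Fkbp14 and Plod1 differed by -1.23, -1.13 and -1.05, and the crosslinking enzyme Lox was the higher one (1.49).

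Of 26 dissociation genes, 4 were lower in the low-osteocalcin cells of Abcg2-MDS/AML, where 8.49% of all genes were, and 0 were higher. The median was -0.48, against 0.24 in the other quality cells of the same libraries. Klf2 was at 629 CPM in Abcg2-MDS/AML and 1769.9 in Control, Nr4a1 at 254 and 623 CPM, Fosb at 715 and 1742 CPM, and Dnajb1 at 68.6 and 180.3 CPM. Of the 26, 10 were at or below free RNA in the higher library. Mineralisation genes were lower in 3 of 6 measured and higher in 0, with Smpd3 at 19.4 and 114 CPM, the calcium channel Trpv4 (-1.72) and the exchanger Slc8a3 (-1.15). Free RNA of Control held 143 CPM of Smpd3. Sp7 was at 14.2 and 29.6 CPM and Dlx5, another bone transcription factor, at 68.6 and 143 CPM, both past the rule, while Vdr, the vitamin D receptor, was higher at 49.2 and 12.1 CPM. Vdr was also a gene of cluster 3 (364 against 31.0 CPM in the other clusters), whose part in the ratio was not tested. The sort gene Pdgfra was higher at 335 and 78.9 CPM, and so it was in the other cells (1.89).

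Signals and bone matrix were mixed in the Abcg2 pair. Of 6 osteoclast-regulating genes 4 were higher and 0 lower (median 1.53), with Tnfsf11 at 47.9 CPM in Abcg2-MDS/AML and 8.52 in Control and Csf1 at 90.7 and 32.3 CPM. In clusters 1, 2 and 3 the median of that list was -0.89, -0.31 and -0.32, so the direction did not hold there. Of 13 niche factors 6 were higher and 0 lower, with Spp1, Vcam1, Csf1 and Kitl (1.46) among them. Csf1 (403 against 42.9 CPM in the other clusters) and Kitl (397 against 27.8 CPM) were, like Vcam1, higher in cluster 3. That cluster held a larger share of Abcg2-MDS/AML (13.9%) than of Control (3.49%), and its part was not tested. Of 27 bone matrix genes 8 were higher, such as Lum (1.21), a proteoglycan that spaces collagen fibrils, and Mgp (1.03), and 4 were lower, such as Col11a1 (-1.36) and Col11a2 (-1.76). Of 12 Wnt genes 2 were higher and 4 lower, with Wif1 at 1002 and 2664 CPM and Fzd8 at a log2 ratio of -1.63. Of 9 IGF genes 3 were higher and 1 lower, Igfbp5 (-1.23). Proliferation genes (7 of 11 lower) and erythroid genes (6 of 6 lower) differed only at the level of free RNA. The 24 ribosomal genes, none past the rule, had a median of 0.17.

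The 10 genes with the largest ratios on the higher side of the Abcg2 pair were at least 2-fold higher in the other quality cells too (log2 1.22 to 4.25), and 8 of the 10 on the lower side were at least 2-fold lower there. Mt2, a metallothionein, was at 3188 CPM in Abcg2-MDS/AML and 159.6 in Control (log2 4.32), with 2999.7 CPM in free RNA and 3.21 in the other cells. Chil1 was at 3696 and 296 CPM (3.64; 3.78 in the other cells), and Pdk4 at 136 and 7.62 CPM (4.12; 4.25). Csmd1 (4.79), Dpep2 (4.65), Cxcl16 (4.25), Abca6 (3.72), Cyp1b1 (3.69), Rnf125 (3.63) and Inhbb (3.61) were the other leading genes, 6 of these 7 at under 50 CPM. On the lower side, Msmp was at 275 and 9345 CPM (-5.09), with 8854 CPM in free RNA of Control. Nrep was at 11.7 and 227 CPM (-4.21). Wfdc12 gave 0 UMIs against 72 in Control, where 1 cell gave 50% of them. Gdf6, Col15a1, Ggcx, Sfrp5, Gdf10 and Npy were lower by 3.08 to 3.68 on the log2 scale, and Mmp3 was lower (-3.01) where the other cells had more (1.04).

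**Figure D5:**
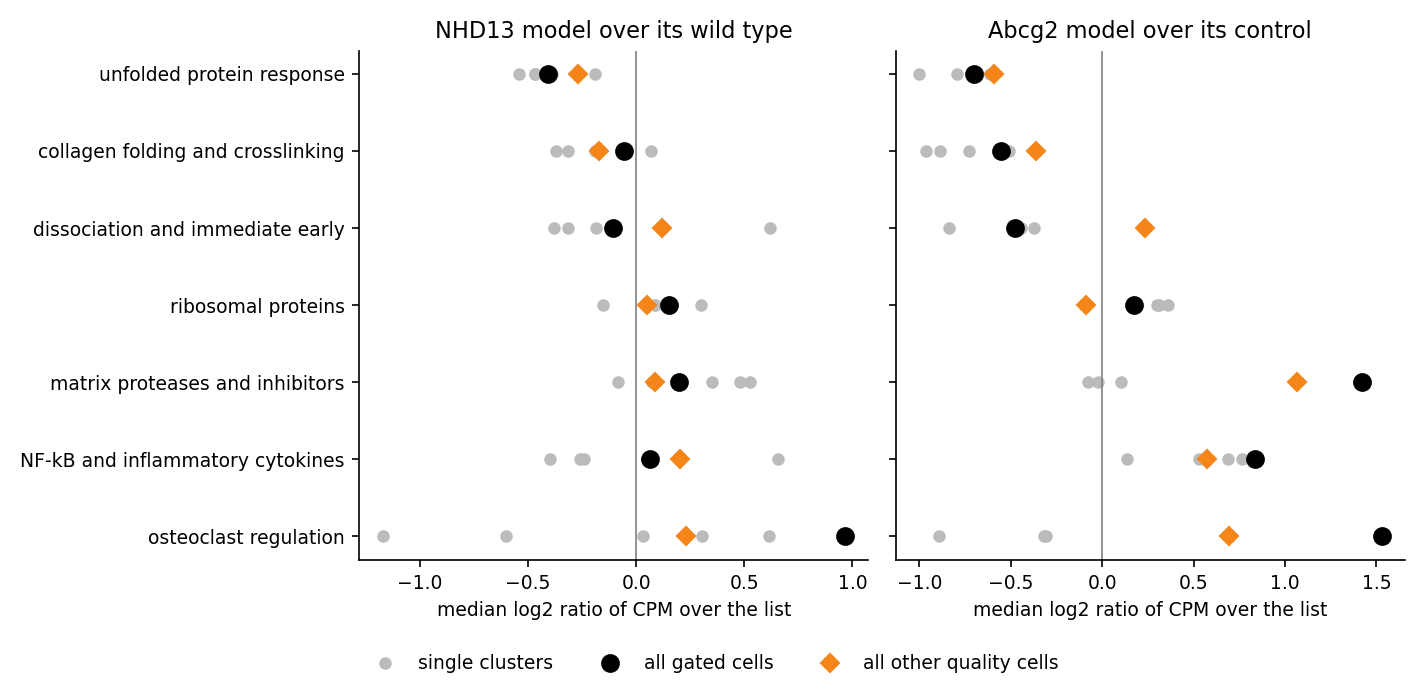
Median log2 ratio of model over wild-type CPM (horizontal axis) for 7 gene lists (rows) in the NHD13 pair (left) and the Abcg2 pair (right). Black circles are all low-osteocalcin cells (the gated cells of the legend), grey circles their single clusters and orange diamonds all other quality cells. In the Abcg2 panel the unfolded protein response and collagen folding lie left of 0 in every cluster shown, whereas proteases lie right of 0 for all cells and near 0 in 3 of the 4 clusters.

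Some genes were past the size rule in the same direction in both pairs, which share no library. On the higher side they were 25, which is 26.3% of the NHD13 list and 5.69% of the Abcg2 list, and on the lower side 29, or 33.3% and 6.17%. Of all genes measured, 7.93% were past the rule on the higher and 8.49% on the lower side in the Abcg2 pair. In the NHD13 pair these shares were 1.64% and 1.5%. Genes at or below free RNA are part of the 25 and 29, and the overlap was not tested. Ctgf, a matrix protein induced by TGF-beta and by stretch, was at 2669 CPM in NHD13Tg and 1058 in WT_A1 and at 6482 in Abcg2-MDS/AML and 1135 in Control. Its log2 ratio was 1.33 and 2.51, against 0.51 and 1.64 in the other cells. Ddit4, an inhibitor of mTOR induced by stress and glucocorticoids, was at 192 and 85.3 CPM and at 351 and 44.4 CPM, and Mmp13 differed by 1.24 and 3.32. Within cluster 0, Ctgf differed by 1.69 and 2.90 and Ddit4 by 2.17 and 3.35, while Mmp13 changed sign, with -0.80 and 3.23. Pdk4, Cldn10, Cdh15 (1.58 and 2.20), Fam20a (1.27 and 1.79) and Mospd1 (1.12 and 1.11) were the other higher genes of the naming rule. Lower in both were Clec3a (-1.70 and -2.07), Sdf2l1, Tspan2 (-1.43 and -2.36), the Hsp90 co-chaperone Chordc1 (-1.41 and -2.02), the lactate carrier Slc16a3 (-1.31 and -1.96), Aff3, Dync2h1 and Ngef. With only cells under 20 u of the cartilage list, the direction turned in the Abcg2 pair for Cdh15 (-0.61), Mospd1 (-0.18), Sdf2l1 (0.31) and Slc16a3 (0.31), and in the NHD13 pair for Aff3 (1.60).

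A joint fit asked for a change shared by both models, with the pair as a term and 1 residual degree of freedom. It called 0 of 9700 genes (0%) in edgeR at an adjusted p under 0.05, with 665 at an unadjusted p under 0.05, and DESeq2 called 3. The leading genes were Mmp9 (5.94), Hmox1 (1.87), Pdk4 (3.11) and Cldn10 (1.62) on the higher side and Hist1h2ap (-2.91), Mepe (-3.05), Clec3a (-1.86) and Mfi2 (-2.28) on the lower, as log2 differences that did not pass. In the NHD13 pair, Mepe had not met the limits on free RNA or single cells. The lowest adjusted p was 0.321. In simulated counts of this design, with 1 fixed dispersion and no difference between the pairs, 53.5% of genes changed 4-fold were recovered.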

How the data were processed

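Mesenchymal stromal cells of 4 mouse libraries were profiled on the Chromium 3' v3.1 platform. The deposited matrices hold raw UMI counts for every barcode listed (6794880 in each library) and 27998 genes. Cell Ranger 3.1.0 and Seurat 3.2.3 are named in the submitters' processing notes, and the genome build is not given in the sources used here.

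Barcodes were filtered and chosen by the limits given in the text. The members and gene lists were chosen with earlier results of these data known, so no list is independent support. The 10 genes of the rule and a near-copy of osteocalcin, 11 in all, were left out of CPM and of every test, and sequences came from RefSeq on GRCm38.p6. With 1 library per group the pairs have no replicate check: counts were summed per library, 0.5 was added to each count, and exact conditional binomial (ratios), Clopper-Pearson (shares) and combined (differences of shares) intervals at 95% cover counting error only. The size rule was 20 CPM in either library, 2-fold, and an interval that leaves out 1. Classes within libraries were compared on summed counts with edgeR 4.0.16 (R 4.3.3; TMM scaling, filterByExpr, quasi-likelihood test, Benjamini-Hochberg 0.05) with the library as a block, and DESeq2 1.42.0 was the alternative. Cells of 1 library share their source, so counts were summed over each class of a library. Those p-values rest on 4 libraries, or on 2 in the fit against chondrocyte-like cells. With so few libraries edgeR draws the spread of each gene toward that of all genes. The p-values are therefore no measure of the spread of a single gene between libraries. On simulated counts with 200 genes changed the class comparison recovered 97% of 4-fold changes with 6 false calls. The changed genes were drawn from those abundant enough to be counted in the smallest sum. All genes had the same fixed dispersion, and no library effect was simulated. The recovery therefore does not cover genes of low level. Clusters came from Seurat 5.3.0 (CCA integration, 2000 variable genes, 20 components, resolution 0.5). Scrublet marked 0 to 1 cells per library at its own threshold and so did not work. As an alternative, the cells with the highest scores were removed at 0.8% per 1000 cells, which took 12, 6, 14 and 8 low-osteocalcin cells.

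Named genes were, in the class comparison, the 12 lowest adjusted p in each direction among those 2-fold apart in the same direction in 4 libraries by CPM, in each pair the 10 largest ratios in each direction and up to 8 shared by both, in the joint fit the leading genes, and in each list the most abundant 2 to 4 called. Unnamed, sex-linked, mitochondrial or ribosomal genes were left out of these rankings. Outside the class comparison, so were genes at their level in free RNA or with over 50% of UMIs from 1 cell. In the class comparison genes were left out where free RNA reached their level in more than 1 library, with no limit on single cells. Further examples, such as Tnfsf11, Zfp521 and members of the less abundant direction of a list, were chosen after their values were seen. Each cluster gene was named from the 5 clusters' leading genes or the lists. Results for 2 genes that these rules would name are not reported here.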

Additional observations from a re-analysis of the deposited data

Results flagged for a closer look

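The share of low-osteocalcin cells among cells that passed the other limits differed between the models. The model library minus the wild type gave -5.82 percentage points (-11.4 to -0.361) in the NHD13 pair and 6.16 points (1.95 to 9.47) in the Abcg2 pair. The NHD13 value was -1.78 (-7.65 to 3.53) with Ibsp at 100 u and -4.76 (-10.8 to 1.02) with thinning, and the Abcg2 value was 4.92 (-1.26 to 9.26) at 4000 UMIs, so these intervals took in 0. The difference between the pairs was not tested. The Abcg2-MDS/AML value rests on 3 osteocalcin-high cells against 35 in Control.

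Fxyd3, a regulator of the sodium pump, had opposite signs in the pairs. It was at 35.4 CPM in NHD13Tg and 10.7 CPM in WT_A1 (log2 1.71), and at 91.9 CPM in Abcg2-MDS/AML and 297 CPM in Control (-1.68). In NHD13Tg 1 cell gave 35.5% of its UMIs, and free RNA of Control held 276 CPM. Without cartilage-rich cells the NHD13 value was -0.16 and the signs were no longer opposite. The difference between the pairs was not tested.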

How the results depend on the processing

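Of 176 comparisons of a main result with an alternative, 126 kept their direction and their call, count within 1.5 times or, for shares, a value within the interval reported, 39 counts or values moved, 5 passed and 5 lost the threshold, and 1 turned. With only cells under 20 u of cartilage genes in both classes (chosen after the data were seen), the difference in the low-osteocalcin share of quality cells was -0.0240 points in the NHD13 pair and 0.351 in the Abcg2 pair, and that of gated cells in the Abcg2 pair was 27.3. With Ibsp at 100 u and with thinning to 2000 UMIs the Abcg2 difference of quality cells was -3.72 and -3.82. The low-osteocalcin share of gated cells in the NHD13 pair, -5.82, was -1.78 with Ibsp at 100 u, with an interval that took in 0.

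Counts past the size rule in the NHD13 pair were 149 higher and 135 lower with thinning, 38 and 39 at 50 CPM, 238 and 255 at 5 CPM, and 211 lower without cartilage-rich cells. In the Abcg2 pair they were 215 and 220 at 50 CPM, 676 and 712 at 5 CPM, and 252 higher without cartilage-rich cells. Of 670 gene values under these settings 534 kept their call, 127 lost it and 9 turned: with thinning Car12 (-1.16) and Tfpi2 (-0.060) in the NHD13 pair and Rnf125 (-0.41) in the Abcg2 pair, and without cartilage-rich cells Fxyd3 (-0.16) and Aff3 (1.60) in the first and Cdh15 (-0.61), Mospd1 (-0.18), Sdf2l1 (0.31) and Slc16a3 (0.31) in the second.

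In the class comparison the counts higher and lower were 166 and 84 with Ibsp at 100 u, 114 and 63 with thinning, 280 and 166 without cartilage-rich cells, 462 and 255 with DESeq2 and 207 and 97 without the library block. With osteocalcin-high cells not held to the Ibsp and Alpl limits 730 were lower. Leaving out each library gave 383 to 728 higher and 167 to 503 lower. Spp1 passed with Ibsp at 25 u (1.18), thinning (1.03), no cartilage-rich cells (1.73) and DESeq2 (1.01), and ranged from 0.78 to 1.34 over the libraries left out. Tnn lost its call with Ibsp at 100 u (0.72), thinning (0.70) and no block (1.79), and Tnfrsf11b without cartilage-rich cells (0.091) and with no block (2.07). The joint fit called 3 higher and 3 lower with Ibsp at 100 u, 10 and 6 with osteocalcin under 50 u, 9 and 5 without doublets, and 3 higher with thinning or DESeq2. No paired analysis was possible because the labels give no replicate numbers that groups share; the block of the class comparison is the library itself, and the term of the joint fit is the pair of libraries. The cause of these changes was not tested.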
